A study of Caenorhabditis elegans with 2 samples.

Results

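The 9 genes described here encode proteins that bind, cap, build or take apart actin filaments: lev-11, unc-87, unc-94, tmd-2, cap-1, cap-2, fhod-1, unc-60 and unc-78. They are picked out of 19973 protein-coding genes by name and function. The rule itself uses no measured value, but the set was put together with earlier results of these data known. Binding of HLH-1 was mapped by chromatin immunoprecipitation with sequencing (ChIP-seq) in embryos of mixed stages and pooled sex from the Caenorhabditis elegans strain OP64, genotype unc-119(ed3) III; wgIs64. The transgene wgIs64 supplies HLH-1, the worm's MyoD-type muscle factor, as a fusion to eGFP. There was 1 group of 2 biological replicates and no second condition, so the question is where the tagged factor was found. What the control library shows was not analysed here. The embryos were used whole, so that a peak in few cells with strong binding and a peak in many cells with weak binding cannot be told apart, and nothing in the lists places a peak in muscle.

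Muscle thin filaments are actin polymers with a fast-growing barbed end at the dense body (the worm's Z-disc) and a slow-growing pointed end towards the middle of the sarcomere. Tropomyosin lies along the filament, capping protein holds the barbed end and tropomodulin the pointed end. Formins add actin at barbed ends, while cofilin and its partner AIP1 cut and disassemble filaments. HLH-1 is a basic helix-loop-helix protein, and proteins of this family bind E-boxes, sites of the form CANNTG.

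Every one of the 9 genes had at least 1 HLH-1 summit of the authors' thresholded list between 5 kb upstream of its start and its end. This list, called the IDR list here, holds the 3254 peaks that passed the authors' irreproducible discovery rate (IDR) threshold. A place on it does not mean a peak in each replicate: the single cap-1 peak had no overlapping peak in replicate 1. Among all protein-coding genes 21.7% had an IDR summit in the same window. Among the 11336 genes whose windows lay between the shortest and longest of the 9 genes (6.63 to 15.72 kb) the share was 23.4%. Lengths were not matched within that range. The median window was 11.1 kb for the 9 genes and 7.03 kb for all protein-coding genes. The 9 windows held 18 IDR summits in 99.8 kb, or 0.18 per kb, and the whole genome held 0.0325 per kb. No test was made across the 9 genes, which are a chosen set.

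The following summit sequences show the sites that the account turns on, the first 3 with an E-box and the last 3 from sites beside a start without one. Each covers the summit and the 50 bp on either side, read 5′ to 3′ on the strand of the gene from the RefSeq sequence of WBcel235, the build called ce11 in the peak files, with every E-box in capitals.
unc-60, 3814 bp upstream, chrV:1471222-1471322, plus strand: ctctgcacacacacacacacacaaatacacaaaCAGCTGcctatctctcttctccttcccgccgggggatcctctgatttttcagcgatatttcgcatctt
tmd-2, 1132 bp downstream, chrV:8335742-8335842, plus strand: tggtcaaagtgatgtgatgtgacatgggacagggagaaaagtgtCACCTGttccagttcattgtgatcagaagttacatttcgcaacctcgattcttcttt
unc-78, 168 bp upstream, chrX:3411733-3411833, minus strand: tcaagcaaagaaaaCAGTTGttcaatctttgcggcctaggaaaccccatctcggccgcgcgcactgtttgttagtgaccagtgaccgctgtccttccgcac
unc-60, 453 bp upstream, chrV:1474583-1474683, plus strand: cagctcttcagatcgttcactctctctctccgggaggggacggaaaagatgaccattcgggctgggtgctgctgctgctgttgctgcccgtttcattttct
cap-1, 173 bp upstream, chrIV:7230346-7230446, minus strand: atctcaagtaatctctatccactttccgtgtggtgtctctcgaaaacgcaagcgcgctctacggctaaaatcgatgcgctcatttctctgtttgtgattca
cap-2, 260 bp upstream, chrII:10868886-10868986, plus strand: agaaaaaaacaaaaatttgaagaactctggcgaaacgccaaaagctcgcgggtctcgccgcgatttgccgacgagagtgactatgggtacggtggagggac
The unc-60 site holds CAGCTG, the tmd-2 site holds CACCTG, and the unc-78 site holds CAGTTG, which is CAACTG on the other strand.

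The number of summits differed among the genes. The tropomyosin gene lev-11 had 4, a number that 0.381% of all protein-coding genes reached or passed. The tropomodulin gene unc-94 and the cofilin gene unc-60 had 3 each, which 1.16% of genes reached. For unc-87 and tmd-2 there were 2 each, reached by 4.71%, and for cap-1, cap-2, fhod-1 and unc-78 there was 1 each. Per kb of window, unc-60 had the most (0.316) and fhod-1 the fewest (0.064). The windows of fhod-1 and unc-94 are 15581 and 15719 bp long, and the part of window length in these counts was not tested.

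**Figure D1:**
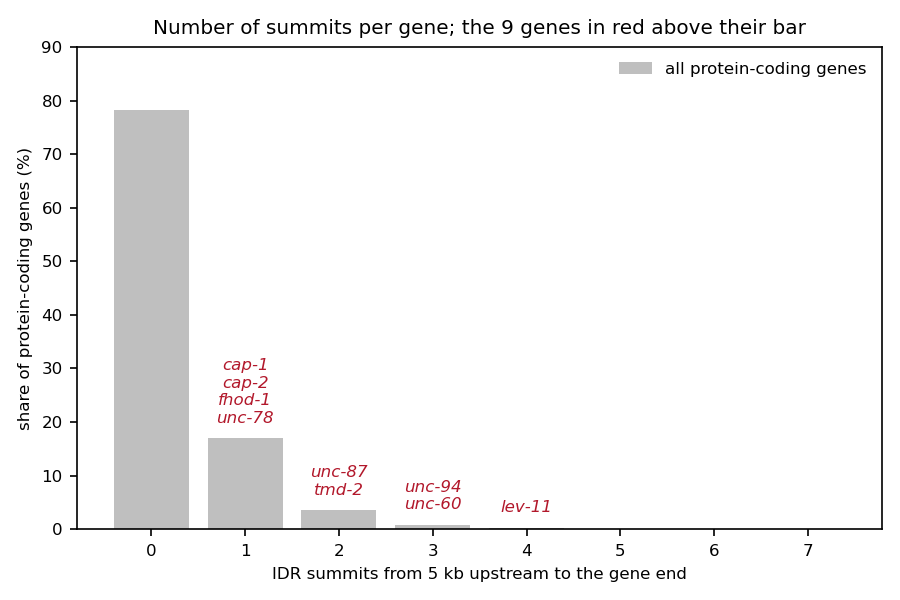
Share of all protein-coding genes (y axis, percent) by the number of IDR summits from 5 kb upstream to the gene end (x axis). Genes without a summit are 78.3% of all, those with 1 are 17%, and the 9 genes, written in red above their bar, have from 1 to 4.

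**Figure D2:**
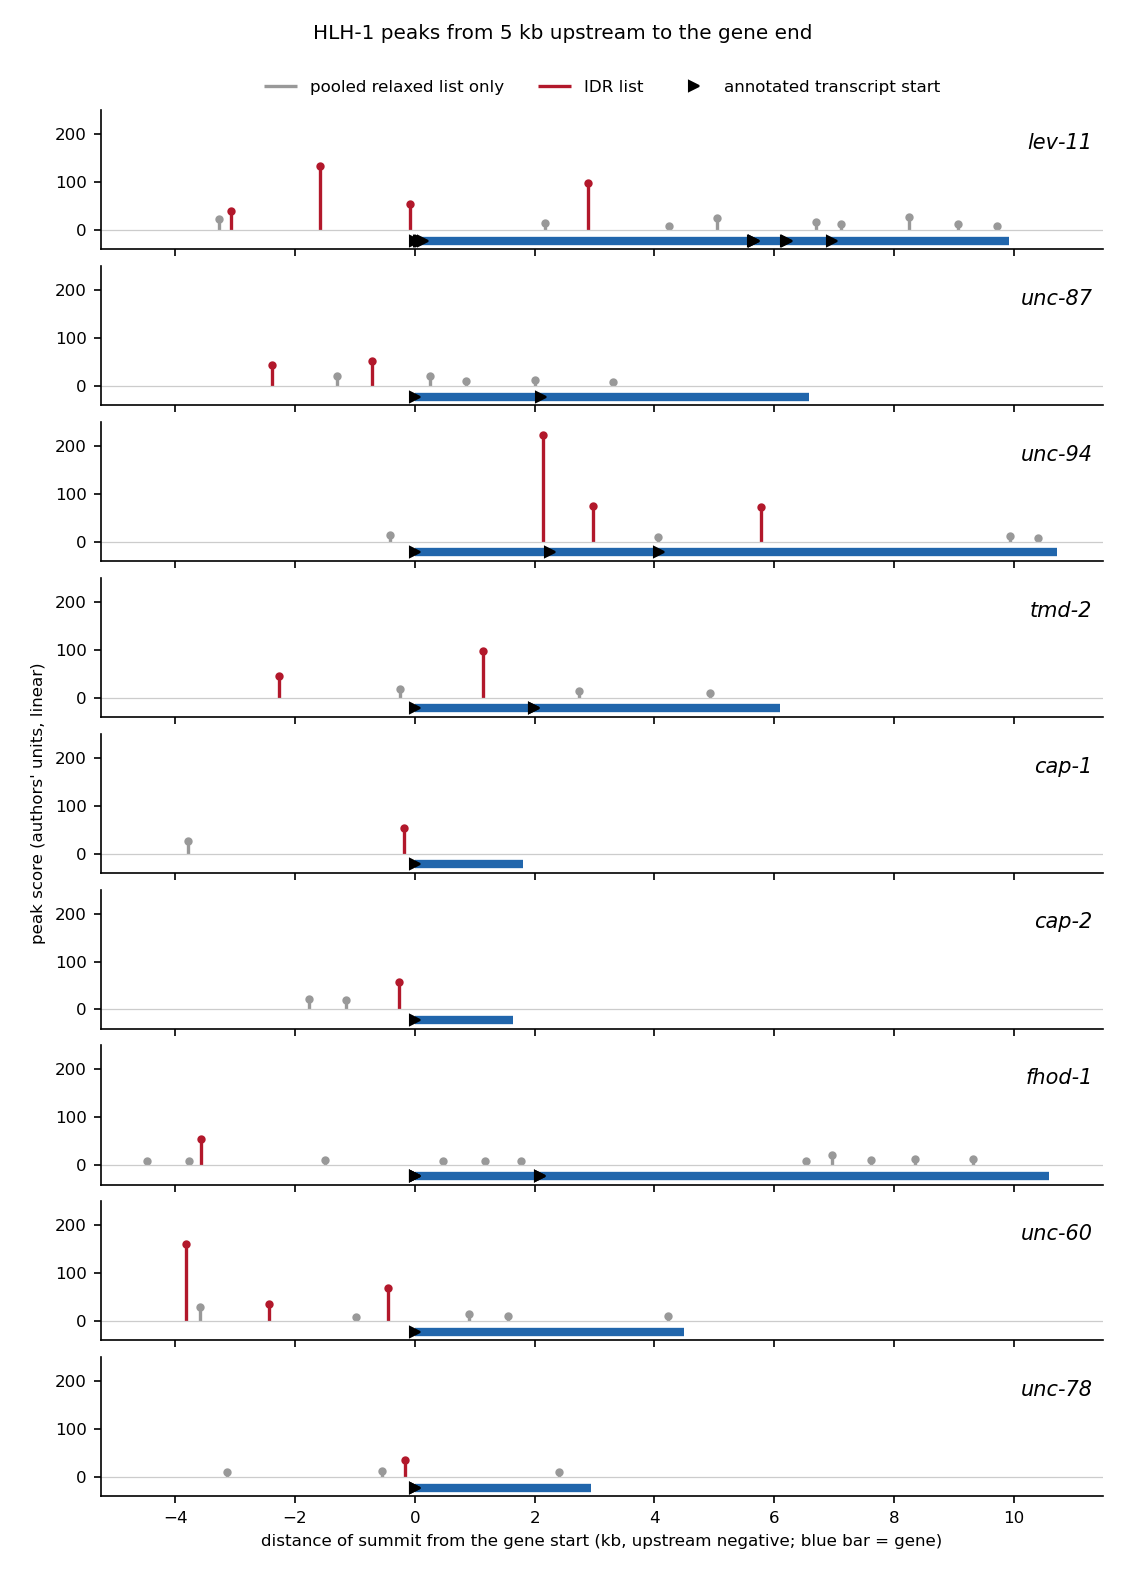
Peak score (y axis, the authors' units) against the distance of the summit from the gene start (x axis, kb, upstream negative), with 1 panel per gene. Red stems are peaks of the IDR list, grey stems those of the pooled relaxed list alone, blue bars the genes and black arrowheads the annotated transcript starts. The highest stem, at 222.9, stands inside unc-94.

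The score is the authors' own value for each peak. Its scale is not stated, so it serves here to rank peaks within a list. In the IDR list scores ran from 32.5 to 964.9, with a median of 55.7, and the 18 peaks of the 9 genes ran from 35.4 to 222.9, with a median of 56.5. Of these, 3 were among the 325 strongest peaks of the list. The peaks were thus many for so few genes, but as a group they were of middling score. All 18, from the score of 222.9 down to that of 35.4, carry the highest −log10 q-value that the list holds, 3.319. This value therefore does not rank them, and the share of the whole list that carries it is not given here.

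Among the proteins that lie along the filament, lev-11 (tropomyosin; chromosome I, 14621169 to 14631094, minus strand) had summits on both sides of its start. The strongest lay 1579 bp upstream, at 14632673 in intergenic sequence, with a score of 133.5, rank 274 of the list. Its score was 10.1 in replicate 1 and 121.9 in replicate 2, where it ranked 1158 and 251. A second peak lay inside the gene, in an intron at 2887 bp (14628207), and had a score of 98.2. It ranked 872 in replicate 1, with a score of 11.5, and 554 in replicate 2, with a score of 88.1. Both of these peaks were therefore among the top peaks of either replicate, defined as the 3254 highest scores, as many as the IDR list holds.

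The other lev-11 peaks were weaker. The summit beside the start, 81 bp upstream at 14631175, scored 55.2 and fell below the top peaks of replicate 1 (score 6.1, rank 4240). The summit 3062 bp upstream (14634156) scored 40.9 and lay 297 bp from the end of exoc-8, a neighbour on the same strand. The annotation gives lev-11 20 transcripts from 11 distinct start positions, of which 5 lie within 135 bp of the gene start. The others lie 5648 to 6960 bp downstream. No IDR summit was within 2000 bp upstream of those internal starts. The pooled relaxed list has a summit 5038 bp downstream of the gene start, 610 bp before the first of them, with a score of 26.0 and rank 4176.

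The gene unc-87, for an actin-bundling protein with calponin-like repeats (chromosome I, 6761221 to 6767797, minus strand), had both its IDR summits upstream, at 711 bp (6768508, score 51.3) and 2375 bp (6770172, score 43.5). Both were among the top peaks of replicate 2, with scores of 54.2 and 41.4. In replicate 1 the nearer one had no overlapping peak at all. The farther one overlapped only a peak whose summit was 159 bp away, with a score of 3.2 and rank 19019. Replicate 1 instead had a top peak 331 bp downstream of the start (score 8.2, rank 1975), where the pooled list has 1 at 254 bp with a score of 21.4. The nearer IDR peak also overlaps F08B6.7, an annotated non-coding RNA gene.

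Among the proteins at filament ends, unc-94 (tropomodulin; chromosome I, 5992661 to 6003379, minus strand) had the strongest peak of the 9 genes and no summit upstream. That peak, 6001156 to 6001322, had a score of 222.9 and rank 56 of 3254. By the strongest summit in the window, unc-94 stood at position 68 of all protein-coding genes. The summit (6001237) lay in an intron, 2142 bp downstream of the gene start, shortly before an internal transcript start at 2257 bp. Replicate 1 scored it 17.7 (rank 326) and replicate 2 208.2 (rank 47), so both put it high.

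The remaining unc-94 summits also lay in introns. At 2979 bp (6000400) the score was 75.0, with 7.4 in replicate 1 and 65.0 in replicate 2, ranks 2571 and 1006. At 5771 bp (5997608) it was 73.5, with 4.0 in replicate 1, rank 12386, and 70.7 in replicate 2, rank 859. The latter was thus strong in replicate 2 alone. A rule that looks from 2000 bp upstream to 500 bp downstream of the gene start misses all 3, while the same rule applied to every annotated transcript start takes in the strongest and the one at 2979 bp.

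A second tropomodulin gene, tmd-2 (chromosome V, 8334660 to 8340756, plus strand), had an intronic summit too. It lay 1132 bp downstream of the gene start and 859 bp upstream of the next annotated transcript start, at 8335792, with a score of 98.1. Replicate 2 scored it 91.1 (rank 515), and replicate 1 had no peak overlapping it. The other tmd-2 summit, 2261 bp upstream (8332399, score 45.3), was in both lists, with 6.0 in replicate 1 (rank 4551) and 40.1 in replicate 2 (rank 2225). Neither was thus among the top peaks of replicate 1. In both tropomodulin genes the strongest summit was in an intron upstream of an internal transcript start, at tmd-2 by 859 bp. An IDR summit anywhere inside the gene was found for 4.2% of all protein-coding genes. That share takes no account of transcript starts and was not matched for gene length. How often an intronic summit precedes an internal start in other genes was not counted.

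The genes of capping protein had a single summit each, close to the start and with a score near the median of the list. For cap-1, the alpha subunit (chromosome IV, 7228422 to 7230223, minus strand), it lay 173 bp upstream (7230396, score 53.6). It was found in replicate 2 (score 49.8, rank 1628) and not in replicate 1. For cap-2, the beta subunit (chromosome II, 10869196 to 10870827, plus strand), it lay 260 bp upstream (10868936, score 57.7). Replicate 2 scored it 51.7 (rank 1518), and replicate 1 4.4 (rank 9856). The cap-2 summit is nearer to another start, that of gmps-1 on the opposite strand, 216 bp away. The cap-1 summit also lies between genes on opposite strands, 839 bp from the start of D2024.4. Which gene of a pair such a peak belongs to was not tested.

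The formin gene fhod-1 (chromosome I, 5058251 to 5068831, minus strand) had 1 IDR summit, the farthest from its start of any single-summit gene here, 3575 bp upstream at 5072406. FHOD-1 is known for its part in the growth of worm muscle filaments. The score was 54.9, with 6.8 in replicate 1 and 49.6 in replicate 2. Its rank of 3253 in replicate 1 makes it the last but one of the top peaks there. The pooled relaxed list has 12 summits in the fhod-1 window, 11 of which did not reach the IDR list.

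The genes for filament disassembly differed. At unc-60 (chromosome V, 1475086 to 1479576, plus strand), which makes the ADF/cofilin proteins, all 3 summits were upstream. The strongest, 1471211 to 1471363, had its summit 3814 bp upstream of the start at 1471272. Its score was 161.9 (rank 168), with 16.3 in replicate 1 (rank 409) and 139.1 in replicate 2 (rank 175). It lay 167 bp past the end of gid-8, whose start, 3528 bp away, is slightly nearer. The summit 453 bp upstream (1474633, score 69.4) was one of the stronger peaks of replicate 1, with a score of 22.1 and rank 180, and ranked 1570 in replicate 2 with 50.7.

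The third unc-60 summit, 2434 bp upstream (1472652, score 35.7), was among the top peaks of replicate 1 (11.1, rank 938) and not of replicate 2 (22.3, rank 4299). It is the single peak of the 18 that replicate 2 left below its top peaks. The annotation lists a second protein-coding gene, F53E2.2, that begins at the same base as unc-60, so the unc-60 summits lie at the same distances from its start.

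At unc-78 (chromosome X, 3408674 to 3411615, minus strand), which encodes the AIP1 protein that works with cofilin, there was 1 summit, 168 bp upstream (3411783). Its score of 35.4 was the lowest of the 18, close to the list's minimum of 32.5. Replicate 1 scored it 9.8 (rank 1247) and replicate 2 32.4 (rank 2884). Replicate 1 had a further top peak 2472 bp upstream (score 7.2, rank 2771) that overlapped nothing in the IDR list at this gene. Its summit was in an exon, within the span of the neighbour dhs-27 on the same strand.

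**Figure D3:**
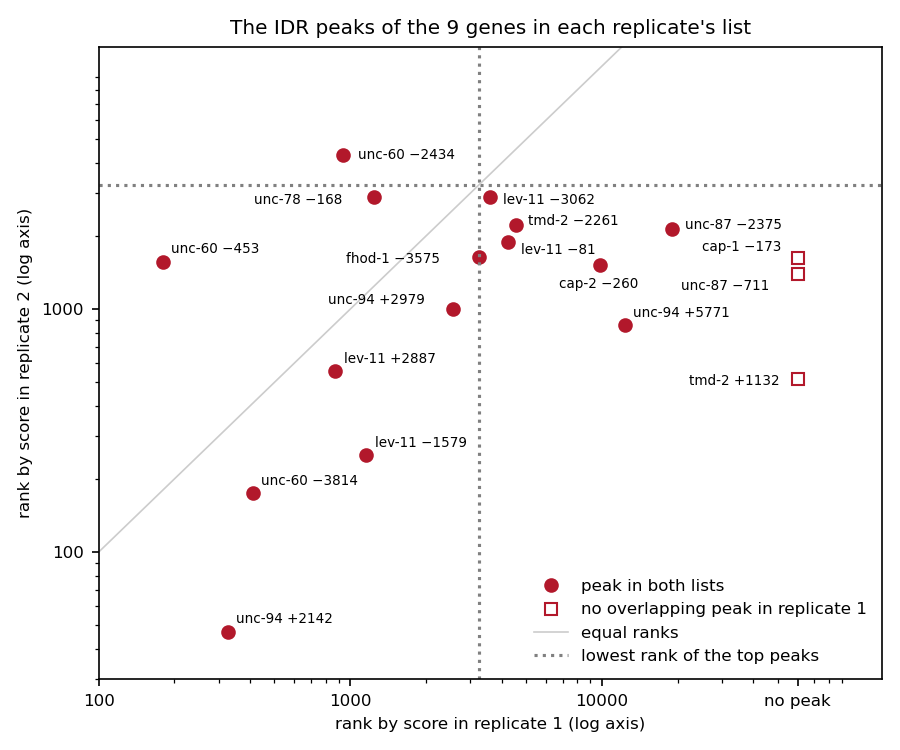
Rank by score in replicate 1 (x axis, log) against rank in replicate 2 (y axis, log) for the 18 IDR peaks, each labelled with its gene and the distance of its summit from the start in bp. Dotted lines mark rank 3254 in each list and open squares the 3 peaks without a counterpart in replicate 1. The unc-94 peak at +2142 ranks 326 and 47.

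Taking both replicates, 17 of the 18 peaks were among the top peaks of replicate 2 and 9 among those of replicate 1, and 8 among both. Over the whole IDR list the corresponding shares were 93.5%, 51.5% and 48%. Matched summits were a median of 5 bp from the IDR summit in replicate 2 and 43 bp in replicate 1. With any peak of the relaxed lists counted, 15 of the 18 (83.3%) had a counterpart in replicate 1 and all 18 in replicate 2. In the whole IDR list 83.2% had one in replicate 1, and 3253 of the 3254 in replicate 2. The 3 without one in replicate 1 were those at unc-87 (711 bp upstream), tmd-2 (1132 bp downstream) and cap-1 (173 bp upstream). The lists of the replicates differ in their score scales, with highest scores of 165.7 and 806.3. The replicates were labelled as separate biological samples, and the peak lists do not carry the number of reads behind them.

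Of the 18 summits 13 were intergenic, 5 lay in introns and none lay in an exon. In the whole list 67% were intergenic, 25% intronic and 8.02% exonic. For 16 summits the nearest protein-coding start was that of the gene itself, the exceptions being the cap-2 summit and the strongest unc-60 summit. This count includes the unc-60 summits at 453 and 2434 bp, which are tied with the start of F53E2.2. Between 2000 bp upstream and 500 bp downstream of the gene start, 6 of the 9 genes had a summit (lev-11, unc-87, cap-1, cap-2, unc-60 and unc-78), compared with 12.8% of all protein-coding genes. With every annotated transcript start counted there were 8 (13.7% of all genes), fhod-1 being the one left out. Within 500 bp of the gene start there were 5 (7.42% of all genes), as the unc-87 summit lies farther off.

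The count over the whole window held under other rules for the window. From 2000 bp upstream to the gene end, 8 genes kept a summit, all but fhod-1 (15.1% of all genes), and in the 5 kb upstream alone 8 did, all but unc-94 (19% of all genes). With only the summits nearest to the gene's own start, 8 genes were left, without cap-2 (11.6% of all genes). Among these, unc-60 was kept only by summits tied with the start of F53E2.2. The stronger peaks were less widely shared: above the median of the list, lev-11, unc-94, tmd-2, cap-2 and unc-60 had a summit (11.5% of all genes), 3 of them near the start (6.23%). By the top peaks of replicate 2 alone all 9 genes had one (21.9% of all genes), 6 near the start (12.8%). By those of replicate 1 alone 7 did, without cap-2 and tmd-2 (21.3% of all genes), 4 near the start (10.1%). At 2 of these 7 genes the replicate 1 summit was at another site than the IDR summits. It lay 3865 bp upstream at cap-1 (score 7.0, rank 2984) and 331 bp downstream at unc-87, the latter being among the 4.

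E-boxes were counted on both strands within 50 bp of each summit, for the form CANNTG and for 3 of its 10 kinds, called leading here. These have the highest share at all IDR summits relative to windows 500 bp to the right. CAACTG and CAGCTG are also the most frequent kinds, while CACCTG is not the next in frequency. For CAGCTG the shares were 15.2% and 1.66%, for CAACTG 18% and 5.1%, and for CACCTG 9.43% and 2.67%. By frequency alone CAAATG, at 9.68% of summits and 8.3% of the windows to the right, would stand before CACCTG. Any E-box was present at 10 of the 18 summits and at 63.4% of all IDR summits. A leading E-box was present at 7 of the 18 (38.9%), against 38.8% of all IDR summits and 9.22% of the windows to their right. The 9 genes do not stand apart from the whole list in this count.

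The leading E-boxes sat at 7 summits of 5 genes. CAGCTG was at unc-60 (3814 bp upstream; chromosome V, 1471255 to 1471260) and at unc-94 (2979 bp downstream; 6000366 to 6000371). CAACTG was at lev-11 (1579 bp upstream, 14632680 to 14632685, and 2887 bp downstream, 14628179 to 14628184) and at unc-78 (3411814 to 3411819). CACCTG was at the strongest unc-94 summit (6001253 to 6001258), beside a CACGTG at 6001243 to 6001248, and at tmd-2 (8335786 to 8335791). Their centres were 3.5 bp (tmd-2) to 33.5 bp (unc-78) from the summit. No leading E-box was found within 50 bp of the IDR summits of unc-87, cap-1, cap-2 or fhod-1, which says only that these letters are not in those stretches.

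The leading E-boxes went with the stronger peaks. All 5 peaks with a score of 98.1 or more held one: those at unc-94 (222.9), unc-60 (161.9), lev-11 (133.5 and 98.2) and tmd-2 (98.1). Of the 13 weaker peaks 2 did, at unc-94 (75.0) and unc-78 (35.4). In the whole list the share was 68.1% of the 574 peaks with a score of 98.1 or more and 32.5% of the 2680 others. The limit of 98.1 was set after the values were seen, and no test was made.

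Near the start no peak was among the strongest, while farther summits were both strong and weak. All 5 of the strongest summits lay 1132 to 3814 bp from the gene start, on either side. The 5 summits within 500 bp of the gene start, at lev-11, cap-1, cap-2, unc-60 and unc-78, scored from 35.4 to 69.4, and 1 of them held a leading E-box. The 13 farther summits scored from 35.7 to 222.9 and 6 held one. Of these 13, the ones at unc-87, fhod-1, the upstream tmd-2 site, and the lev-11 and unc-60 sites at 3062 and 2434 bp scored within the range of the near summits. Distance is from the gene start here, and the strongest peak, at unc-94, lies shortly before an internal transcript start. Over all IDR peaks, 28.2% of the 1223 summits within 500 bp of a protein-coding start held a leading E-box and 45.1% of the others, with median scores of 53.1 and 57.8. The share was lower beside starts in the whole list too. Strong peaks were not missing there: the highest score of the list, 964.9, lay within 500 bp of a start, and the highest of the others was 910.0.

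**Figure D4:**
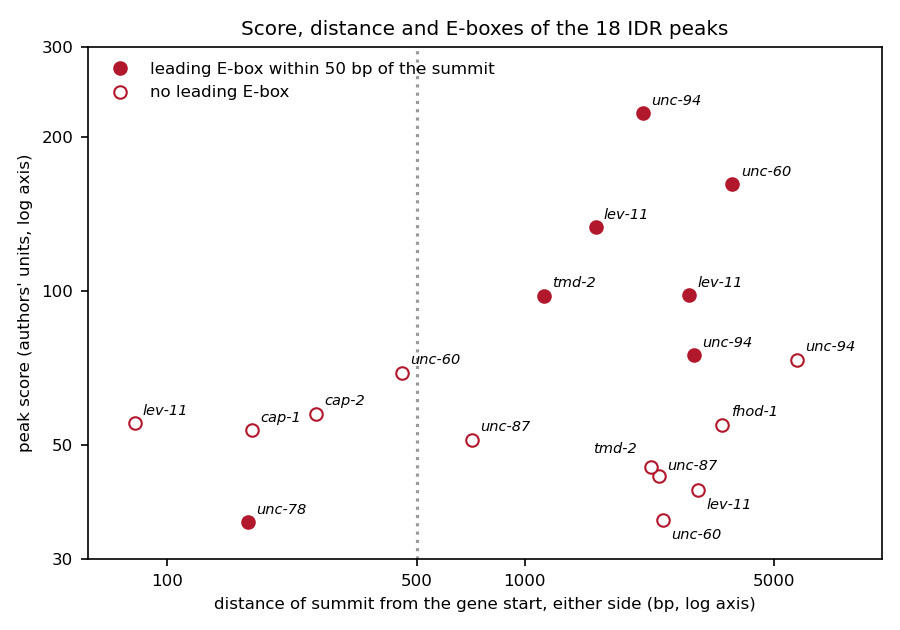
Peak score (y axis, log, the authors' units) against the distance of the summit from the gene start on either side (x axis, bp, log) for the 18 IDR peaks. Filled points hold a leading E-box and the dotted line marks 500 bp. The 5 highest points, from 98.1 to 222.9, are filled and lie to the right of the line.

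A second short motif, GAGAGA or its other strand TCTCTC, which can share with an E-box only the base at its end, was present at 7 of the 18 summits (38.9%) and at 29.7% of all IDR summits. It was found at unc-94 (2142 and 5771 bp downstream), lev-11 (2887 bp downstream), unc-60 (3814 and 453 bp upstream), cap-1 and fhod-1. The unc-60 and cap-1 sequences printed above show it as TCTCTC on the strand of the gene. It thus occurred both with and without a leading E-box.

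Below the IDR list, the pooled relaxed list, which holds peaks together with background, had 43 further summits in the 9 windows, for 61 in all. The highest of them scored 28.7 and lay 3589 bp upstream of unc-60, beside its strongest peak. A lev-11 summit 8257 bp downstream of the start followed with 26.7, and the median was 12.0. A leading E-box was present at 7 of the 43 (16.3%), and at 13.4% of all relaxed summits below the IDR list. The relaxed lists held 49 summits in the windows for replicate 1 and 68 for replicate 2. These lists are long (28959 and 30000 peaks, and 25321 in the pooled one). No count over all genes is set beside the numbers of relaxed summits.

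The nearest IDR summits outside the windows lay 345 bp beyond the upstream limit of cap-1 (score 62.5), 1153 bp beyond that of cap-2 (score 32.7), 663 bp past the end of fhod-1 (score 33.2) and 1483 bp past the end of unc-60 (score 73.4). For lev-11 and unc-78 the next summits were 13576 and 23435 bp away.

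Other genes of actin assembly, turnover and crosslinking had summits less uniformly. Of 46 listed symbols 45 matched a gene (inft-1 did not), and 25 of the 45 had an IDR summit in the window (55.6%, against 21.7% of all protein-coding genes). Near the start, by the rule of 2000 bp upstream to 500 bp downstream, there were 15 (33.3%, against 12.8%). The median number of summits was 1 over the 45 genes, 2 over the 9 genes and 0 over all protein-coding genes. The windows of the 45 are of unequal length, up to 36.41 kb for unc-53, and no test was made of the difference from the 9 genes.

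By family, 8 of 10 crosslinkers and scaffolds had a summit, as did 4 of 7 genes for profilin and other monomer-binding proteins and 3 of 5 for severing and coronin-type proteins. For nucleation promoting factors and their complexes it was 3 of 6, all of them near the start. For the Arp2/3 complex, which branches filaments, it was 3 of 7, none of them near the start. Of the formins other than fhod-1 2 of 5 had a summit (cyk-1, score 44.9, and frl-1, score 76.1), again none near the start. As 12.8% of all protein-coding genes had a summit near the start, none of 7 or of 5 is close to the overall share. Of the calponin-like genes clik-1 (score 64.4) and cpn-3 (score 117.3) had summits, and cpn-1, cpn-2 and cpn-4 did not.

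The strongest peaks in the windows of these genes were at wve-1 (320.2), the filamin gene fln-1 (152.2), cpn-3, cas-1 (101.5), arx-5 (95.2) and arx-2 (92.9). Some of these lie nearer to other starts. The wve-1 peak was 4812 bp upstream of it and 3563 bp from the start of R06C1.4, the arx-5 peak 79 bp from the start of Y37D8A.2, and the arx-2 peak 384 bp from that of K07C5.3. The fln-1, cpn-3 and cas-1 peaks were nearest to those genes, 3027, 1314 and 562 bp upstream. No IDR summit fell in the windows of abi-1, arx-3, arx-4, arx-6, arx-7 or cas-2.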

How the data were processed

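All values come from 4 peak lists on ce11: the IDR list (3254 peaks), the pooled relaxed list (25321) and the relaxed lists of replicate 1 (28959) and replicate 2 (30000). Per the deposited manifest, the pooled list was made from both replicates' alignments and a control, and the IDR list from it together with the list of each replicate. The authors gave each peak a score of unstated scale and a −log10 q-value. Aligner, caller, IDR threshold and depth were not given in the sources used here. No interval can therefore be put on a score. Per the labels, fragments were 150 to 350 bp.

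Summits, 1-based, were set against Ensembl release 115 genes (WBcel235), with the most 5′ annotated base as the start. Windows ran from 5 kb upstream to the gene end. A replicate's peak matched an IDR peak at an overlap of 1 bp or more, the nearest summit being taken. E-boxes were searched within 50 bp of each summit with Python 3.11.15 and pandas 2.3.3. The counting was checked on simulated summits. Lists on ce10 were not used, since no coordinates were converted.

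The genes, lists, motifs and alternatives were chosen with earlier results of these data known. The rule for names takes all 9 genes, genes whose start is nearest to a summit, and of the other actin genes the 6 strongest and the first 6 in the alphabet without a summit; further actin genes were named after their values were seen. Genes and peaks are not replicates and there is 1 group, so no test was made.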

Additional observations from a re-analysis of the deposited data

How the results depend on the processing

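With the IDR peaks above the median score only, the genes with a summit in the window fell from 9 to 5, the summits from 18 to 9 and the genes with a summit near the start from 6 to 3, as a list with fewer peaks must give no more. Peaks among the top peaks of both replicates numbered 8 in the main count, 5 with an overlap of 50% of each peak and 15 with any peak of the relaxed lists. The peaks lost at 50% overlap were the strongest at lev-11 (score 133.5), unc-60 (161.9) and unc-94 (222.9). They are 131, 153 and 167 bp wide, less than 50% of the replicate 1 peaks they overlap, so their width alone fixed the loss. No share of the whole list is given for this rule. Leading E-boxes were at 38.9% of summits within 50 bp and at 22.2% within 25 bp (26.2% of all IDR summits at that distance). Counting the top peaks of 1 replicate alone gave 7 to 9 genes with a summit, 12 to 17 summits and 4 to 6 genes with a summit near the start. It gave 24 to 26 of the other actin genes. Leading E-boxes were then at 33.3% of summits in replicate 1, against 26.5% of all its top peaks. In replicate 2 they were at 35.3%, against 38.6%. The lower count of genes came from replicate 1, whose top peaks left out cap-2 and tmd-2. At cap-1 and unc-87 they lay at other sites than the IDR summits. The other windows gave 8 of 9 genes each, and 8 had a summit near any transcript start. Alternatives were scored by size of the count, a change of 1.5 times or less counting as none. No paired analysis was possible because there is 1 group. Read depth, which is unknown, limits how far a weak peak in 1 replicate can be told from background.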
